A study of Mus musculus with 24 samples.

Results

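The lysosome is the compartment in which cells digest proteins, sugars and lipids, and the genes described here are 31 of its components: 13 cathepsins, the protease legumain, 5 glycosidases, 5 membrane proteins, 3 cofactors and carriers, 3 genes that are high in macrophages, and the regulator Tfeb. They were taken by symbol from the 23955 gene symbols of the count table, by a rule that uses no measured value. The list itself was chosen with earlier results of these data known. All 31 were present and all 31 passed the filter on low counts. They were followed in RNA from whole mouse kidney, in 24 libraries of polyadenylated RNA. The wild type mice were PLD4+/+ (WT) and the knockout mice PLD4-/- (KO). Pld4 encodes phospholipase D4, an endolysosomal protein that degrades single-stranded nucleic acids. Each genotype gave 3 groups of 4 libraries: control kidneys at day 0, kidneys 5 days after unilateral ureteral obstruction (UUO, tying off 1 ureter, a model of kidney fibrosis), and kidneys 10 days after it. The age, sex, strain and knockout allele, and whether the day 0 mice had sham surgery, are not given in the sources used here. The labels name the 4 libraries of a group as separate replicates without saying what was repeated, so p-values measure the spread between these samples only.

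Lysosomal hydrolases are made in the endoplasmic reticulum, tagged with mannose 6-phosphate in the Golgi, carried to the acidic lysosome and there cut into their active form. Cathepsins are mostly cysteine proteases (B, C, F, H, K, L, O, S, W and Z), with 2 aspartic proteases (D and E) and 1 serine carboxypeptidase (A). The transcription factor TFEB moves to the nucleus when lysosomes are stressed or nutrients are short and binds an E-box, CACGTG, in the promoters of many lysosomal genes. In the kidney, the reabsorbing cells of the proximal tubule are rich in lysosomes, and macrophages, which enter the kidney after obstruction, carry a lysosomal set of their own with cathepsin S, CD68 and LAPTM5.

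The promoters of 5 members are printed here because they show the E-box in genes that fell after obstruction in WT (Lamp1 and Mcoln1) and in 1 that rose there by day 10 (Ctsd), and windows without it in the strong risers Ctss and Cd68. The sequences come from RefSeq, build GRCm38.p6, which is not the build of the deposited tables (mm9, per the submitters' processing notes). Each is a stretch of 120 bases within the 250 bases before the start of transcription, 5′ to 3′ on the gene's strand, with every CACGTG, and the bases that extend it to TCACGTGA, in capitals. The first 3 belong to genes with the motif and the last 2 to genes without it: Ctsd on chromosome 7 (minus strand, chr7:142387828-142387947), Lamp1 on chromosome 8 (plus strand, chr8:13159041-13159160), Mcoln1 on chromosome 8 (plus strand, chr8:3500399-3500518), Ctss on chromosome 3 (plus strand, chr3:95526666-95526785) and Cd68 on chromosome 11 (minus strand, chr11:69666171-69666290).
Ctsd: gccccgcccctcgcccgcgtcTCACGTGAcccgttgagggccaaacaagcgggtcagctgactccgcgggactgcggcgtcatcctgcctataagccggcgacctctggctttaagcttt
Lamp1: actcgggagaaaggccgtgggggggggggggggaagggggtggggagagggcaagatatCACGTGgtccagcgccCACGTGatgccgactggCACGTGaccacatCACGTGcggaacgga
Mcoln1: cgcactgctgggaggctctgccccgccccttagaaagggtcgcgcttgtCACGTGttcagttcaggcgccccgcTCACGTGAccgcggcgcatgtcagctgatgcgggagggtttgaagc
Ctss: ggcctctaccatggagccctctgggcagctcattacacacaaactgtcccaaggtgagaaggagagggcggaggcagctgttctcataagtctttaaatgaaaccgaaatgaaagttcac
Cd68: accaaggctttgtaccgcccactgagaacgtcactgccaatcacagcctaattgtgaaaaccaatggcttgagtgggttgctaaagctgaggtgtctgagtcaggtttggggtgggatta

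RefSeq promoters were matched for 25 of the 31 genes. CACGTG, which reads the same on both strands, was found in the 250 bases before the start of 9 of them (36%), against 6.86% of 27025 genes with a promoter in the same table. The 9 were Ctsa, Ctsd, Ctsf, Ctsl, Lgmn, Glb1, Gaa, Lamp1 and Mcoln1, with 4 copies in Lamp1 and 2 each in Ctsd and Mcoln1. The longer TCACGTGA, every copy of which contains CACGTG, was found in Ctsa, Ctsd and Mcoln1 (12% of the 25, against 0.907% of all genes). None of the 3 cofactors and carriers, nor Cd68, Laptm5 or Tfeb, held CACGTG in this window. A match is a run of letters and not a measured binding site.

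The libraries held 9800888 to 22542866 counts. Pld4 counts were present in every KO library: Pld4 had 6.70 to 12.6 CPM (counts scaled to library size) in KO controls against 5.10 to 8.25 in WT controls, 13.4 to 32.6 against 46.6 to 50.9 at day 5, and 24.3 to 50.3 against 54.6 to 117 at day 10. Pld4 was lower in KO only after obstruction (log2 fold change -1.25, adjusted p = 0.0724, at day 5 and -1.13, adjusted p = 0.0331, at day 10), and in the control kidneys it was 0.50 higher (adjusted p = 0.438), so the labels are checked by it only in part. Kidney identity was clear in the controls, where the summed CPM of 10 proximal tubule markers was 21680.4 to 26088 in WT and 16333 to 25231 in KO. In a principal component analysis, the second component (9.45% of the variance) separated WT day 10 replicates 2 and 3 from the rest. The same libraries had a neutrophil marker sum of 3942 and 6545 CPM, against 26.4 to 29.0 in the other WT day 10 libraries. For 10 members another annotated gene overlaps (Ctsa, Ctsb, Ctss, Ctsw, Ctsz, Hexa, Glb1, Lamp2, Npc1 and Laptm5 in RefSeq), and whether the counting used strand is not given in the sources used here, so their counts can hold reads of a neighbour. The deposited FPKM values place the median gene 0.47 to 0.54 (log2) higher after obstruction in the 4 comparisons with day 0, against 0.01 to 0.12 in the scaled counts. Of the genes called, 80.2% to 95.5% were higher on the FPKM scale and 52.1% to 56.8% on the count scale. Fold changes below are from the counts. Of the 94 values called for the members over all comparisons, 11 had the other sign on the log2(FPKM + 1) scale, each given in its sentence. Of the 247 values not called, 50 did, so the sign of a value that was not called is not to be read as a direction.

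Compared per transcript length, as FPKM, the lysosomal genes of the control kidney were led by membrane proteins and a cofactor. In WT controls Cd63, a tetraspanin of late endosomes, stood at 727 ± 38.3 FPKM (mean ± SD, n = 4 here and below), Psap, the precursor of the saposins, at 661 ± 48.5, and the main lysosomal membrane glycoproteins Lamp1 and Lamp2 at 487 ± 20.7 and 348 ± 13.5. Cd63 and Psap overlap within their SDs, whereas Lamp1 and Lamp2 are separated by more than the spread. The first 3 proteases were Ctsd (268 ± 29.1), Lgmn (238 ± 10.2) and Ctsl (213 ± 8.89), of which Ctsd and Lgmn overlap within their SDs. Ctss stood at rank 25 of 31 with 5.52 ± 1.69 FPKM, and Ctse and Ctsw were the last 2 at 0.611 ± 0.395 and 0.261 ± 0.128.
At day 10 of obstruction, Ctss was at rank 6 in WT with 419.7 ± 322 FPKM and at rank 8 in KO with 212 ± 38.1; the WT mean was carried by replicates 2 and 3, and the lowest WT library, at 134 FPKM, was below all KO libraries (158 to 243). Neu1 moved from rank 10 to 19 and Glb1 from rank 11 to 20 in WT. The summed FPKM of the 13 cathepsins was 897 ± 64.0 in WT controls and 2548 ± 926 at day 10 (1719 to 3572). That of the 3 macrophage-enriched genes was 15.8 ± 3.06 and 176 ± 112 (74.4 to 317). In KO the cathepsin sum was 952 ± 116 and 1947 ± 156, and the macrophage-enriched sum 33.8 ± 6.76 and 106 ± 13.8. Between days, these sums include the upward shift of the median gene in FPKM given above.

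After obstruction the 31 genes split. Most of those that rose belong to the cathepsins and the macrophage-enriched genes, and most of those that fell are glycosidases and membrane proteins. In WT at day 5, 9 genes rose and 10 fell, where 56.6% of all 15080 genes tested were called, 31% higher and 25.6% lower (edgeR's quasi-likelihood test, Benjamini-Hochberg adjusted p under 0.05, the call used throughout). At day 10 in WT, 14 rose and 10 fell (68.1% of all genes called, 37.8% higher and 30.3% lower). In KO, 10 rose and 5 fell at day 5 (39.5% of all genes called, 22.4% higher and 17% lower), and 11 rose and 9 fell at day 10 (54.3% of all genes called, 28.3% higher and 26% lower). Control and obstructed libraries did not overlap for 53.1%, 61.4%, 39.6% and 56.6% of all genes in these 4 comparisons, so a lack of overlap, given below for single members, was common. The members called in these comparisons were 61.3%, 77.4%, 48.4% and 64.5% of the 31, 4.69 to 10.2 percentage points above the share of all genes called. The share called therefore says little about these genes, and their direction and size say more. On the log2(FPKM + 1) scale 20 members rose and 3 fell in WT at day 5, 17 and 4 at day 10, and in KO 18 and 0 at day 5 and 18 and 1 at day 10. With each library centred on its median gene, the splits were 8 and 10, 14 and 10, 9 and 6, and 10 and 9. In the counts, the members' median log2 fold change was 0.13 and -0.04 in WT at day 5 and day 10, against 0.08 and 0.12 for all genes, and 0.07 and 0.05 in KO, against 0.01 and 0.04.
By role, of the 13 cathepsins 8 rose and 1 fell in WT at day 10, and 6 rose and 2 fell in KO. Of the 5 glycosidases 1 rose and 4 fell in WT and 1 rose and 3 fell in KO. The 5 membrane proteins gave 1 riser and 4 fallers in WT and 3 fallers in KO. On the log2(FPKM + 1) scale the splits in KO at day 10 were 1 up and 1 down for glycosidases and 1 up and none down for membrane proteins, whose medians turned from -0.53 to 0.09 and from -0.49 to 0.08. With each library centred on its median gene, those splits were 1 up and 3 down and 0 up and 3 down. In bulk tissue, fewer cells of a type and less RNA per cell cannot be told apart, which holds for every change below.

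**Figure D1:**
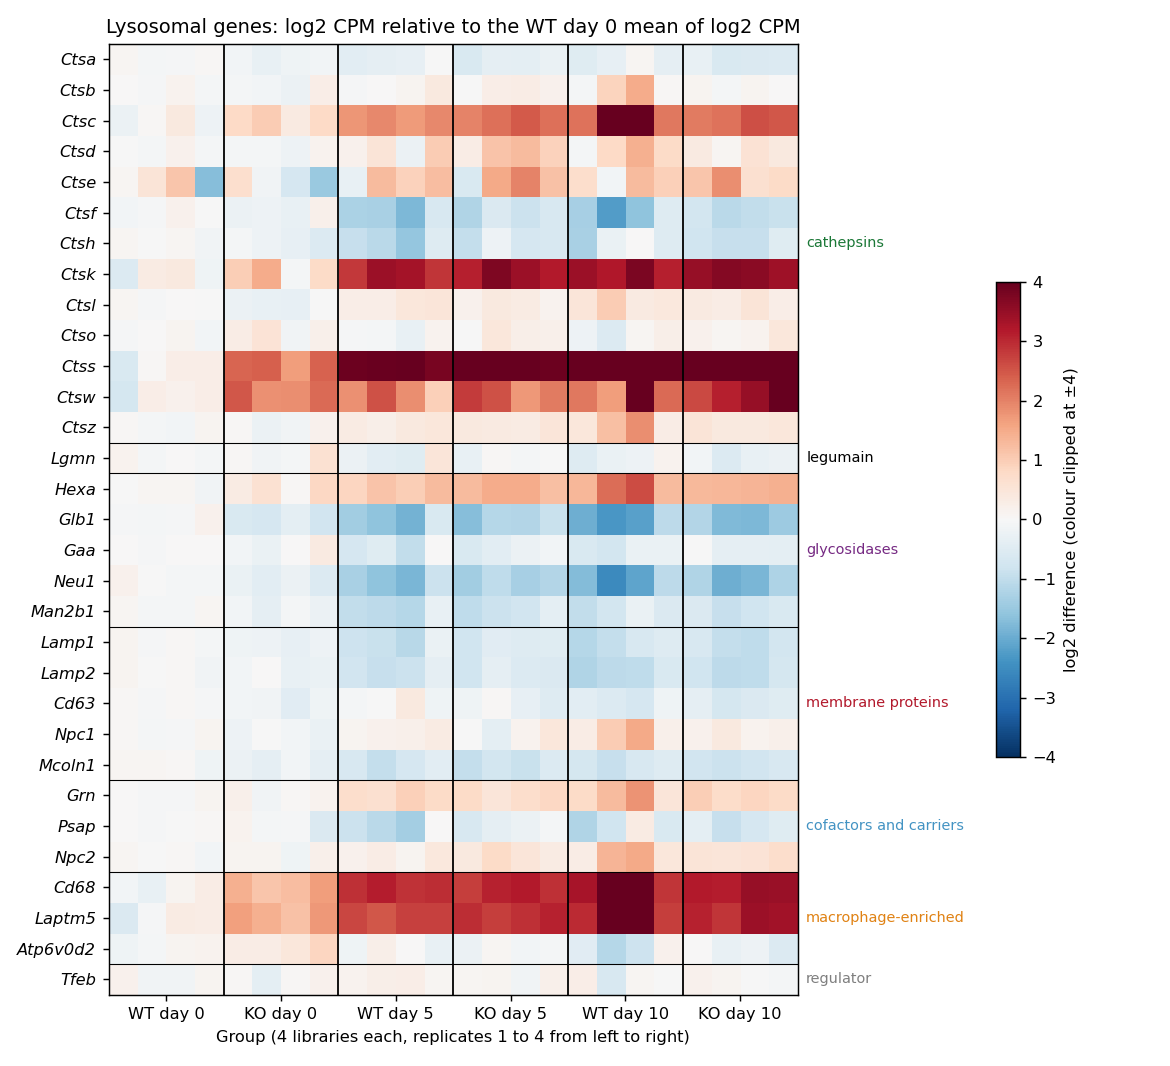
Heat map of the 31 genes (rows, grouped by role) in the 24 libraries (columns, by genotype and day). Colour is log2 CPM minus the mean of the WT controls, clipped at 4 in either direction. Ctss, Cd68, Ctsk and Laptm5 are high in all obstructed libraries and highest in WT day 10 replicates 2 and 3, except Ctsk, and Neu1, Glb1 and the Lamp genes are low.

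Among the cathepsins, Ctss, Ctsc and Ctsk rose in both genotypes on both days. Ctss encodes cathepsin S, the protease that trims the invariant chain from MHC class II in antigen-presenting cells. Its CPM in replicates 1 to 4 was 8.39, 13.2, 15.4 and 15.5 in WT controls, 195, 198, 204 and 177 at day 5 and 247, 826, 1332 and 217 at day 10. All obstructed WT libraries lay above all controls, and at day 10 replicates 2 and 3 held several times the level of the others. Ctss was 14.7-fold higher at day 5 (log2 fold change 3.88 ± 0.43, adjusted p = 4.14e-07) and 49.9-fold higher at day 10 (log2 fold change 5.64 ± 0.47, adjusted p = 4.54e-09). Leaving out replicates 2 and 3 gave a WT day 10 log2 fold change of 4.17. The KO values were 64.7, 67.4, 40.6 and 65.3 in controls, 224, 221, 241 and 191 at day 5 and 220.3, 280.2, 308 and 366 at day 10. They also separated without overlap, from a higher control level. The KO increase was 3.69-fold at day 5 (log2 fold change 1.88 ± 0.39, adjusted p = 0.000878) and 4.94-fold at day 10 (log2 fold change 2.30 ± 0.40, adjusted p = 8.28e-05).

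Ctsc encodes cathepsin C (dipeptidyl peptidase I), which activates the granule serine proteases of neutrophils and cytotoxic cells. Its CPM was 25.8, 31.2, 40.1 and 26.0 in WT controls, 103, 115, 98.9 and 114 at day 5 and 136, 663, 747 and 131 at day 10. Day 5 and the controls did not overlap, and at day 10 replicates 2 and 3 were again far above replicates 1 and 4. The log2 fold change was 1.81 ± 0.40 at day 5 (adjusted p = 0.000759) and 3.77 ± 0.43 at day 10 (adjusted p = 2.75e-07), and 2.15 at day 10 without those libraries. In KO, Ctsc was 53.1, 61.5, 38.5 and 53.1 in controls and 129, 136, 179.9 and 169 at day 10, a log2 fold change of 1.57 ± 0.39 (adjusted p = 0.00221).
Ctsk encodes cathepsin K, a collagen-degrading protease best known from osteoclasts and also made by fibroblasts. Its CPM was 1.99, 3.66, 3.86 and 2.58 in WT controls, 20.7, 31.2, 29.6 and 21.2 at day 5 and 31.1, 27.0, 39.7 and 25.2 at day 10, and in KO 5.75, 8.12, 2.74 and 4.99, 25.1, 38.8, 31.5 and 26.2 and 33.0, 36.9, 35.3 and 30.7. No obstructed library overlapped a control library of its genotype, and unlike Ctss and Ctsc it was not raised further in WT day 10 replicate 2. The increase was 8.49-fold at day 5 (log2 fold change 3.09 ± 0.27, adjusted p = 2e-08) and 10.2-fold at day 10 in WT (log2 fold change 3.35 ± 0.27, adjusted p = 3.25e-09), and 6.37-fold at day 10 in KO (log2 fold change 2.67 ± 0.26, adjusted p = 1.07e-07). Without WT day 10 replicates 2 and 3, the WT day 10 log2 fold change of Ctsk was 3.25. All 7 fibroblast markers also rose in the 4 comparisons with day 0. Of 5 osteoclast markers tested, 4 rose in WT at day 10, and 3 rose and 1 fell in KO. The summed CPM of the 7 osteoclast markers was 101 to 116 in WT controls and 71.4, 423, 583 and 76.6 in WT day 10 replicates 1 to 4. The part of either list in the result was not tested.

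**Figure D2:**
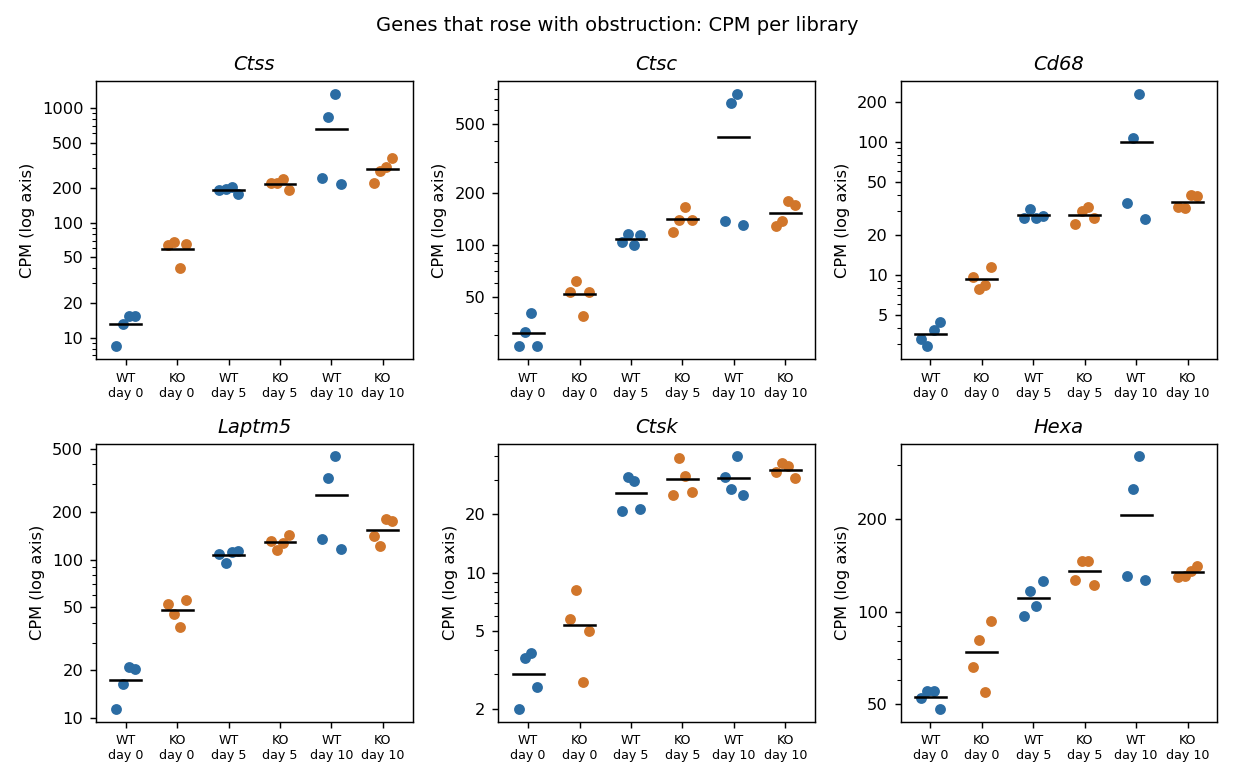
CPM (log axis) of Ctss, Ctsc, Cd68, Laptm5, Ctsk and Hexa in each library, by day, with WT and KO side by side. Points are libraries and lines join or mark group means. Every obstructed library lies above the control libraries of its genotype for these genes, and WT day 10 replicates 2 and 3 are the highest points for all but Ctsk.

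Ctsw, encoding cathepsin W of cytotoxic lymphocytes, was a low-count gene. Its CPM was 0.432, 0.850, 0.807 and 0.859 in WT controls, 2.5, 4.19, 2.56 and 1.36 at day 5 and 3.08, 2.28, 12.9 and 3.44 at day 10, with replicate 3 high at day 10. It rose by 1.83 ± 0.52 (log2, adjusted p = 0.0057) and 2.86 ± 0.52 (adjusted p = 6.39e-05) in WT. In KO its CPM was 3.95, 2.51, 2.59 and 3.43 in controls and 4.47, 6.14, 8.01 and 11.4 at day 10, and only the day 10 change passed (1.26 ± 0.45, adjusted p = 0.0235), a call lost in 3 of 24 fits that each left out 1 library (KO day 0 replicates 2 and 3 and KO day 10 replicate 4, adjusted p up to 0.086).
Ctse, cathepsin E, had 0.602 to 7.74 CPM over all libraries. It passed in KO alone (1.49 ± 0.55 at day 5, adjusted p = 0.0372, and 1.39 ± 0.55 at day 10, adjusted p = 0.0387), and each call was lost in 5 of the 24 fits (adjusted p up to 0.128 and 0.132). The genotypes' Ctse responses were not shown to differ (difference 0.89 ± 0.77 at day 5, adjusted p = 0.611, and 0.91 ± 0.77 at day 10, adjusted p = 0.607).

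The abundant housekeeping cathepsins changed less. Ctsl, cathepsin L, rose in all 4 comparisons, by 0.37 ± 0.15 and 0.60 ± 0.15 in WT at day 5 and day 10, and in KO by 0.47 ± 0.15 and 0.57 ± 0.15 (adjusted p = 0.0391, 0.00132, 0.0163 and 0.00307). Its WT CPM was 834, 761, 789.7 and 774 in controls and 1115, 1607, 1013 and 1062 at day 10, with no overlap. The WT day 5 call of Ctsl was lost in 5 of the 24 fits (each WT day 0 replicate and WT day 5 replicate 3, adjusted p up to 0.0822).
Ctsb, cathepsin B, was 993, 953, 1084 and 946 CPM in WT controls and 945, 1857, 2771 and 1026 at day 10, so that only replicates 2 and 3 exceeded all controls. It rose by 0.73 ± 0.24 (adjusted p = 0.0118), and without WT day 10 replicate 3 the value was 0.38 (adjusted p = 0.101). Ctsz, cathepsin Z (also called X), had 178, 161, 159 and 185 CPM in WT controls and 234, 389, 614 and 211 at day 10. All day 10 libraries were above the controls, and the change was 1.08 ± 0.22 (adjusted p = 0.000183), or 0.41 (adjusted p = 0.00778) without replicates 2 and 3. Ctsd, cathepsin D, had 970.3, 928, 1093 and 938 CPM in WT controls and 938, 1706, 2609 and 1656 at day 10, where replicate 1 lay among the controls. The WT day 10 change was 0.81 ± 0.27 (adjusted p = 0.0118; 0.57 and adjusted p = 0.063 without WT day 10 replicate 3).
In KO, Ctsd was 925, 919, 857 and 1081 CPM in controls, 1205, 2147, 2342 and 1852 at day 5 and 1252, 1040.2, 1453 and 1292 at day 10. Its day 5 value passed (1.00 ± 0.27, adjusted p = 0.00693) and its day 10 value did not (0.41 ± 0.27, adjusted p = 0.204). At day 10 only replicate 2 lay within the range of the KO controls. Neither Ctsb nor Ctsz passed in KO (0.06 and 0.47 at day 10).

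Ctsf was the cathepsin that fell throughout. Cathepsin F is a cysteine protease; its CPM was 96.0, 100.3, 116 and 103 in WT controls, 42.7, 41.8, 29.6 and 66.0 at day 5 and 41.0, 22.2, 34.2 and 72.1 at day 10. Every obstructed WT library was below every WT control. The log2 fold change of Ctsf was -1.20 ± 0.26 and -1.29 ± 0.26 in WT (adjusted p = 0.000637 and 0.000189) and -0.69 ± 0.26 and -0.80 ± 0.26 in KO (adjusted p = 0.0381 and 0.013), the KO day 5 call being lost in 5 of the 24 fits (adjusted p up to 0.112).
Ctsh, cathepsin H, an aminopeptidase, fell in WT at day 5 (-0.97 ± 0.23, adjusted p = 0.0014), from 334 to 391 to 125 to 258 CPM with no overlap, and had -0.45 at day 10 (adjusted p = 0.0869), but 0.12 on the log2(FPKM + 1) scale. Without WT day 10 replicates 2 and 3 the day 10 value of Ctsh was -0.83 and called (adjusted p = 0.00797). Ctsa, the carboxypeptidase that also protects beta-galactosidase and neuraminidase in their complex, fell in KO at day 10 (-0.34 ± 0.13, adjusted p = 0.0386), although on the log2(FPKM + 1) scale it was 0.29, and the call was lost in 6 of the 24 fits (adjusted p up to 0.104). Ctso, cathepsin O, was between -0.08 and -0.03 in the 4 comparisons, not called in the counts. On the log2(FPKM + 1) scale it was 0.48 to 0.56 and called. Lgmn, the asparaginyl endopeptidase that activates several cathepsins, had 797 to 929 CPM in WT controls and 589 to 927 at day 10 and was not called (-0.20 ± 0.21, adjusted p = 0.402; 0.40 on the log2(FPKM + 1) scale, where it was not called either).

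The macrophage-enriched genes Cd68 and Laptm5 followed the pattern of Ctss. Cd68 encodes macrosialin, a heavily glycosylated lysosomal protein of macrophages. Its CPM was 3.29, 2.89, 3.86 and 4.38 in WT controls, 26.7, 31.4, 26.5 and 27.4 at day 5 and 34.8, 107, 230.0 and 26.0 at day 10, and in KO 9.53, 7.76, 8.30 and 11.4, 24.2, 30.1, 32.4 and 26.7 and 32.0, 31.5, 39.5 and 39.1. The obstructed libraries were all above the controls of their genotype, and WT day 10 replicates 2 and 3 were above every other library. In WT, Cd68 was 7.77-fold higher at day 5 (log2 fold change 2.96 ± 0.46, adjusted p = 2.86e-05) and 27.5-fold higher at day 10 (log2 fold change 4.78 ± 0.49, adjusted p = 7.3e-08). In KO at day 10 it was 3.83-fold higher (log2 fold change 1.94 ± 0.43, adjusted p = 0.00085). The WT day 10 log2 fold change of Cd68 was 3.10 without those libraries.
Laptm5 encodes a lysosomal transmembrane protein of blood cells that limits antigen receptor signalling. Its CPM was 11.4, 16.5, 21.0 and 20.5 in WT controls, 109, 95.1, 111 and 113 at day 5 and 135, 325, 448 and 116 at day 10, with replicates 2 and 3 again the highest. The log2 fold change was 2.62 ± 0.32 and 3.88 ± 0.33 in WT (adjusted p = 1.32e-06 and 7.52e-09; 2.88 at day 10 without those libraries) and 1.42 ± 0.30 and 1.69 ± 0.30 in KO (adjusted p = 0.00102 and 0.000127).
Atp6v0d2, a proton pump subunit made by macrophages and osteoclasts, and also by intercalated cells of the collecting duct, moved the other way. Its CPM was 58.7, 58.6, 65.7 and 87.2 in KO controls, 40.2, 50.1, 44.6 and 45.4 at day 5 and 48.0, 39.1, 41.4 and 32.7 at day 10. Both obstructed KO groups were below all KO controls, by -0.58 ± 0.20 (adjusted p = 0.0272) and -0.75 ± 0.20 (adjusted p = 0.00432), although on the log2(FPKM + 1) scale the KO day 5 value was 0.02. That KO day 5 call was lost in 4 of the 24 fits (adjusted p up to 0.107). In WT it fell by 0.48 at day 10 (adjusted p = 0.0406), but was 0.07 on the log2(FPKM + 1) scale, and the call was lost in 17 of the 24 fits (adjusted p up to 0.196).

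Macrophage and tubule markers moved with these genes. The summed CPM of 16 macrophage markers, none of which was at 0 in any group, was 180.5, 229, 264 and 278 in WT controls, 1458, 1609, 1399 and 1409.7 at day 5 and 2041, 7478, 11794 and 1858 at day 10, and in KO 626, 559, 445 and 534, 1768, 2029, 1794 and 1952 and 1767, 2248, 2309.7 and 2514. All 16 rose in both genotypes at day 10. WT day 10 replicates 2 and 3, highest in Ctss, Ctsc, Cd68 and Laptm5, were also highest in this sum. The sum of 11 neutrophil markers was 1.46 to 3.41 CPM in WT controls, where Ngp, Camp, Mpo and Elane were at 0, 13.8 to 25.8 at day 5, and 29.0, 3942, 6545 and 26.4 at day 10. It was 12.5 to 22.7 in KO at day 10. The part of either list in the results was not tested.

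Of the 5 glycosidases, enzymes that remove sugars from glycoproteins and glycolipids, 4 fell in WT on both days and Hexa rose. In KO 2 fell at day 5 and 3 at day 10. Neu1, the sialidase, had 899.8, 783, 748 and 747 CPM in WT controls, 322, 258, 225 and 437 at day 5 and 238, 135, 183 and 383 at day 10. The obstructed libraries did not overlap the controls, and replicate 4 was the highest of both obstructed groups. Neu1 changed by -1.35 ± 0.26 at day 5 (adjusted p = 0.00021) and -1.76 ± 0.26 at day 10 (adjusted p = 6.84e-06), to 0.295 of the control level. In KO it had 664, 588, 667 and 539.6 CPM in controls and 343, 202, 221 and 336 at day 10 (log2 fold change -1.16 ± 0.26, adjusted p = 0.000861).
Glb1, beta-galactosidase, had 365, 352, 362 and 420.4 CPM in WT controls, 141, 124, 101 and 246 at day 5 and 97.3, 74.2, 83.2 and 179 at day 10. Again no obstructed library reached the controls, and replicate 4 was the highest. The log2 fold change of Glb1 was -1.29 ± 0.27 and -1.79 ± 0.27 in WT (adjusted p = 0.000403 and 7.67e-06). In KO it was -0.60 ± 0.26 at day 5 (adjusted p = 0.0725) and -0.91 ± 0.26 at day 10 (adjusted p = 0.00618).
Man2b1, the alpha-mannosidase, had 333, 299.6, 303 and 336 CPM in WT controls, 159, 153, 145 and 259 at day 5 and 160.0, 189, 262 and 215 at day 10. It fell in WT, by -0.83 ± 0.18 and -0.62 ± 0.18 (adjusted p = 0.000647 and 0.00419). In KO the Man2b1 count values were -0.56 ± 0.18 and -0.53 ± 0.18 (adjusted p = 0.0175 and 0.0161), but on the log2(FPKM + 1) scale they were 0.02 and 0.09. Those KO calls were lost without KO day 5 replicate 1 (-0.47, adjusted p = 0.0586) and without KO day 10 replicate 2 (-0.46, adjusted p = 0.0554).
Gaa, the acid alpha-glucosidase that clears glycogen, had 163, 156, 162 and 164 CPM in WT controls and 106, 96.9, 135 and 135 at day 10. It fell in WT by the counts, by -0.48 ± 0.18 and -0.45 ± 0.18 (adjusted p = 0.027 and 0.032), but was 0.12 and 0.18 on the log2(FPKM + 1) scale, and each call was lost in 5 of the 24 fits. In KO, Gaa was not called (-0.35 and -0.29, adjusted p = 0.123 and 0.18; 0.24 and 0.34 on the log2(FPKM + 1) scale).
Hexa, the alpha chain of beta-hexosaminidase, was the exception. Its CPM was 52.3, 55.0, 55.2 and 48.2 in WT controls, 96.4, 117, 104 and 126 at day 5 and 131, 249, 319 and 127 at day 10, and in KO 66.2, 80.7, 54.9 and 93.5, 126, 146, 146 and 122 and 129, 131, 136 and 141. No obstructed library overlapped its controls, and WT day 10 replicates 2 and 3 were the highest. Hexa rose in WT by 1.07 ± 0.22 and 1.97 ± 0.22 (adjusted p = 0.0004 and 2.69e-07; 1.32 at day 10 without those libraries) and in KO by 0.87 ± 0.22 and 0.86 ± 0.22 (adjusted p = 0.00373 and 0.0024).

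**Figure D3:**
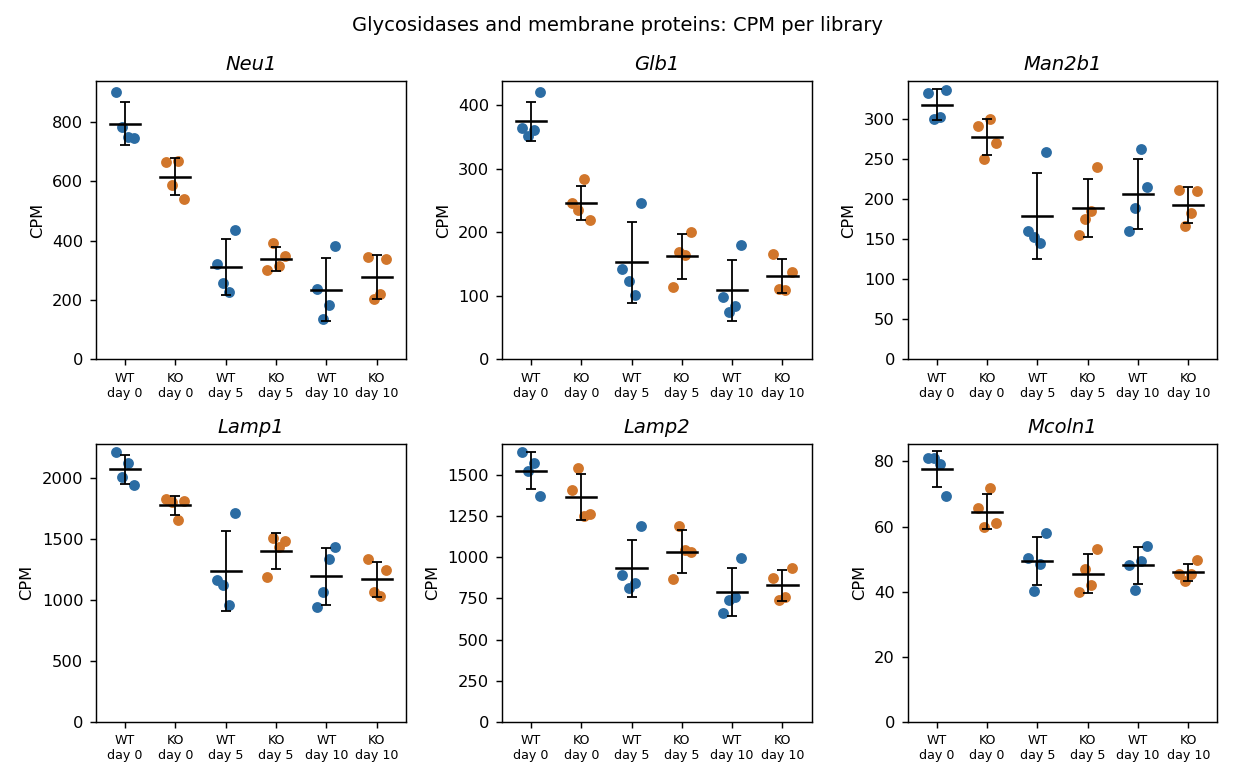
CPM (axis from 0) of Neu1, Glb1, Man2b1, Lamp1, Lamp2 and Mcoln1 in each library, by day, WT and KO side by side, with the mean ± SD of each group of 4. The obstructed libraries lie below the controls of their genotype for all 6 genes on both days, and replicate 4 is the highest WT day 5 library for each.

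The membrane proteins Lamp1, Lamp2 and Mcoln1 were called lower in WT on both days and in KO at day 10, and in KO at day 5 only Mcoln1 was. Lamp1 and Lamp2, which line the inner face of the lysosomal membrane, had 2216, 2005, 2122 and 1946 and 1638, 1522, 1576 and 1371 CPM in WT controls and 938, 1061, 1335 and 1438 and 662, 741, 759.9 and 998 at day 10. For both genes, every day 10 library was below every control. Lamp1 changed by -0.74 ± 0.18 and -0.80 ± 0.18 in WT (adjusted p = 0.00191 and 0.000677). In KO it was -0.60 ± 0.18 at day 10 (adjusted p = 0.00861), but 0.02 on the log2(FPKM + 1) scale. Lamp2 changed by -0.71 ± 0.17 and -0.95 ± 0.17 in WT (adjusted p = 0.00128 and 4.49e-05). The KO day 10 value of Lamp2 was -0.72 ± 0.17 (adjusted p = 0.00116). In KO at day 5, Lamp1 and Lamp2 were at -0.34 and -0.40 (adjusted p = 0.144 and 0.0595), and at 0.24 and 0.09 on the log2(FPKM + 1) scale. In FPKM, the WT means of Lamp1 at day 0, 5 and 10 were 487 ± 20.7, 455 ± 117 and 435 ± 55.6, overlapping within their SDs. Those of Lamp2 were 348 ± 13.5, 316 ± 60.2 and 245 ± 53.9, with only day 10 below the controls by more than the SDs.
Mcoln1, the calcium channel TRPML1, had 81.0, 81.0, 79.3 and 69.4 CPM in WT controls, 50.2, 40.2, 48.6 and 58.1 at day 5 and 48.1, 40.5, 49.5 and 54.1 at day 10, with no overlap with the controls. It was called in all 4 comparisons, at -0.66 ± 0.12, -0.69 ± 0.12, -0.51 ± 0.12 and -0.49 ± 0.12 (adjusted p = 8.9e-05, 2.36e-05, 0.00183 and 0.00129), but on the log2(FPKM + 1) scale the KO values were 0.08 and 0.08. The WT means of Mcoln1 in FPKM at day 0, 5 and 10 also overlapped within their SDs (20.1 ± 1.15, 19.3 ± 3.15 and 18.6 ± 2.25). Cd63, the tetraspanin, was flat at day 5 in WT (0.06) and fell by 0.45 at day 10 (adjusted p = 0.0181), but was 0.19 on the log2(FPKM + 1) scale, a call that 2 of the 24 fits lost, those lacking replicate 2 or 3 of WT day 10 (adjusted p up to 0.0838).
Npc1, the transporter that moves cholesterol out of the lysosome, went the other way. It had 42.1, 38.7, 39.7 and 44.2 CPM in WT controls and 50.3, 82.4, 118 and 46.9 at day 10. All day 10 libraries were above the controls, replicates 1 and 4 narrowly and replicates 2 and 3 by far. Npc1 rose by 0.85 ± 0.21 (adjusted p = 0.00117), and without WT day 10 replicates 2 and 3 it was 0.27 and not called.

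The proximal tubule markers stand beside the genes that fell. Their summed CPM was 21680.4 to 26088 in WT controls, 7951, 5896, 3171 and 12129 at day 5 and 2847, 258, 806 and 8826 at day 10, and in KO 5224, 7007, 5478 and 9294 at day 5 and 5697, 2574, 2612 and 5704 at day 10. All 10 markers fell at day 10 in both genotypes. Of 10 loop, distal tubule and collecting duct markers, 10 fell in WT at day 10 and 8 in KO, and none rose. Their summed CPM was 9165 to 12917 in WT controls and 237 to 5580 in WT at day 10. The part of tubule RNA in the fall of the genes was not tested.

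Of the carrier and cofactor genes, Grn and Npc2 rose at day 10 and Psap was not called there. Grn, the precursor of the lysosomal granulins, had 260.1, 249, 253 and 278 CPM in WT controls, 427, 402, 502 and 442 at day 5 and 441, 624, 910.1 and 363 at day 10. No obstructed library overlapped the controls. Grn was called in all 4 comparisons, at 0.77 ± 0.19 and 1.17 ± 0.20 in WT (0.66 at day 10 without replicates 2 and 3) and 0.62 ± 0.19 and 0.77 ± 0.19 in KO (adjusted p = 0.0023, 2.57e-05, 0.0147 and 0.00225).
Npc2, the soluble partner of NPC1, had 188, 176, 181 and 162 CPM in WT controls and 218, 452, 508 and 239 at day 10, where replicates 2 and 3 stood above the others. It rose by 1.00 ± 0.20 in WT (adjusted p = 0.000168; 0.40 without those libraries) and by 0.50 ± 0.20 in KO (adjusted p = 0.0379), the KO call being lost in 5 of the 24 fits (adjusted p up to 0.109). Psap was 3109.8, 2989, 3074 and 3148 CPM in WT controls, 1712, 1455, 1209.7 and 3123 at day 5 and 1341, 1756, 3829 and 2039.5 at day 10, so replicate 4 at day 5 and replicate 3 at day 10 stood at or above the controls. It was called at day 5 in WT (-0.72 ± 0.30, adjusted p = 0.0461), a call lost in 18 of the 24 fits (adjusted p up to 0.169), and was -0.46 ± 0.30 at day 10 (adjusted p = 0.177), but 0.11 on the log2(FPKM + 1) scale. Without WT day 10 replicates 2 and 3 the day 10 value of Psap was -0.84 and called (adjusted p = 0.0268).

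Tfeb itself was not called in any comparison of the counts. Its CPM was 25.1 to 31 in WT controls, 29.3 to 33.0 at day 5 and 17.9 to 33.1 at day 10, with overlap throughout. The log2 fold change at day 10 was -0.04 ± 0.15 in WT (adjusted p = 0.817, 95% interval -0.35 to 0.27) and 0.05 ± 0.15 in KO (adjusted p = 0.789). On the log2(FPKM + 1) scale the WT day 10 value was 0.52 and was called higher, close to that of the median gene. RNA level does not measure TFEB activity, which depends on where the protein is. Of the 9 genes with CACGTG before the start, 2 rose (Ctsd and Ctsl) and 5 fell (Ctsf, Glb1, Gaa, Lamp1 and Mcoln1) in WT at day 10, with a median of -0.45. Of the 16 matched genes without it, 9 rose and 4 fell, with a median of 1.04. In KO at day 10 the counts were 1 up and 5 down with the motif and 8 up and 3 down without it (medians -0.44 and 0.48). Over all genes, 37.8% were called higher and 30.3% lower in WT at day 10, and 28.3% and 26% in KO. The WT values include replicates 2 and 3, and the WT day 10 calls of Ctsd and Gaa were lost in 1 and 5 of the 24 fits. The sets with and without the motif also differ in role and in macrophage content, and no test was made between them.

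**Figure D4:**
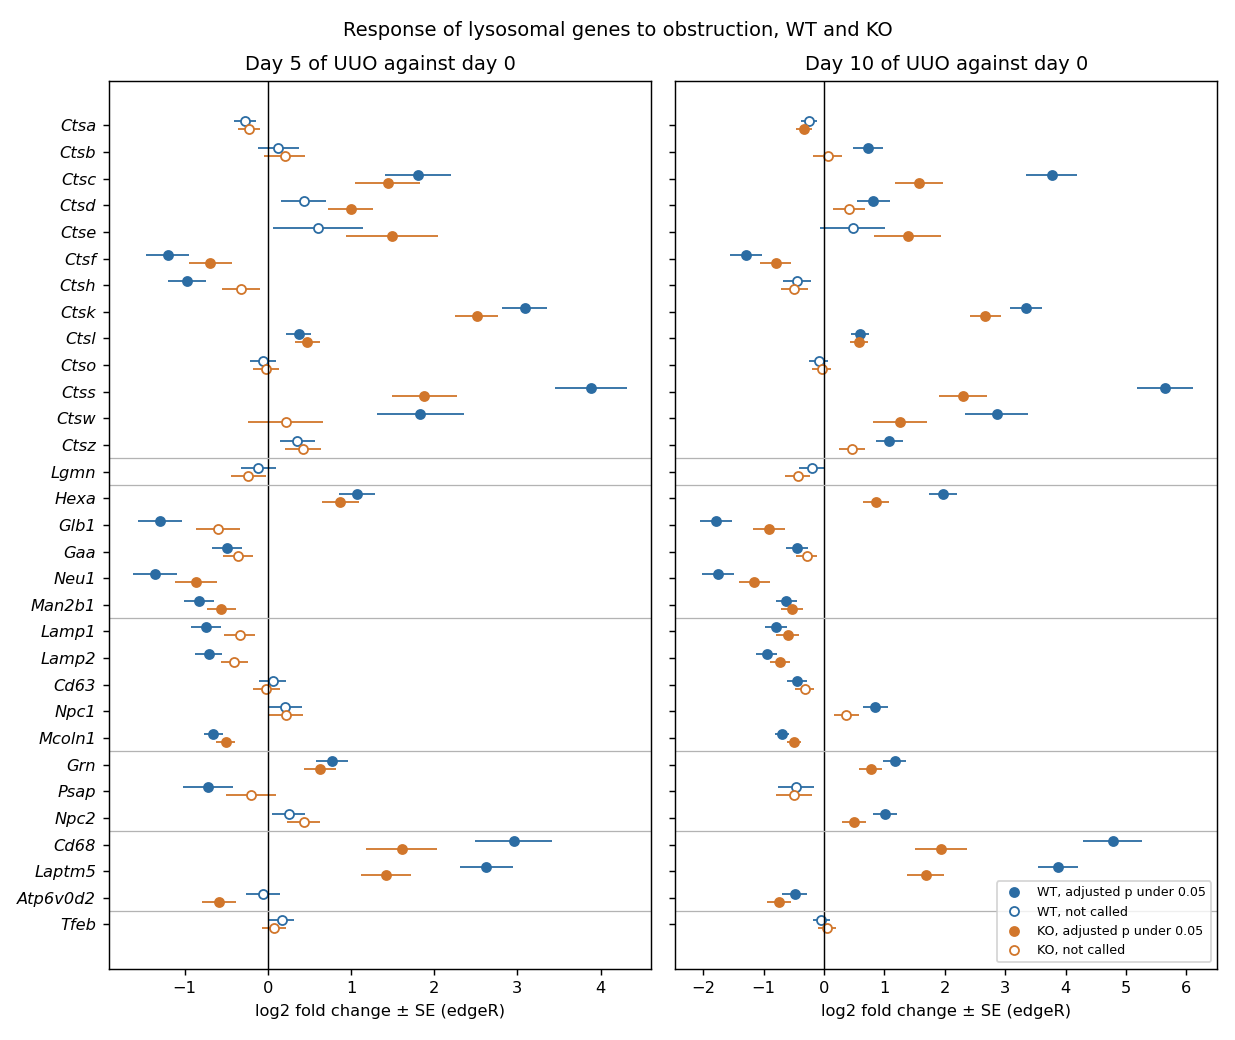
Log2 fold change (± SE) against the day 0 group of the same genotype for each of the 31 genes, at day 5 and day 10, in WT and KO; filled points have an adjusted p under 0.05. In WT at day 10 the largest increases are Ctss, Cd68, Laptm5, Ctsc and Ctsk, and the largest decreases are Glb1, Neu1 and Ctsf. In KO at day 10 Ctsk has the largest increase and Neu1 the largest decrease.

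The genotypes shared calls about as often among the members as among all genes. At day 5, 12 genes were called in both (8 up and 4 down, none in opposite directions), 63.2% of the 19 called in WT and 80% of the 15 called in KO, against 58.5% and 83.9% for all genes called in both in the same direction. At day 10, 18 were called in both (10 up and 8 down, none in opposite directions), 75% of the 24 in WT and 90% of the 20 in KO, against 72.6% and 91% for all genes. The WT and KO comparisons share no libraries.

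Between day 5 and day 10 of obstruction in WT, 8 of the 31 genes rose further and Cd63 fell (10.8% of all genes called, 7.86% higher and 2.93% lower). All of these calls but that of Ctsc depend on single libraries. The risers were Ctsc (1.96 ± 0.40, adjusted p = 0.00631), Ctss (1.76 ± 0.39, adjusted p = 0.00889), Cd68 (1.83 ± 0.41, adjusted p = 0.0105), Laptm5 (1.26 ± 0.30, adjusted p = 0.013), Hexa (0.90 ± 0.22), Npc2 (0.75 ± 0.20), Ctsz (0.73 ± 0.22) and Npc1 (0.65 ± 0.21). The calls rest on WT day 10 replicates 2 and 3: without both, none of the 31 was called, without replicate 3 alone 1 was (Ctsc) and without replicate 2 alone 3 were. There were 14 calls without WT day 10 replicate 4, and without WT day 5 replicate 1, 2 or 3 there were 5 each. WT day 10 replicates 1 and 4 had 247 and 217 CPM of Ctss against 177 to 204 at day 5. With the replicate number as a block, Cd63 (-0.51, adjusted p = 0.0544) and Npc1 (0.62, adjusted p = 0.0602) were not called.
In KO no member was called between day 5 and day 10, where 0.0199% of all genes were (edgeR; 0 by DESeq2 too), and 2 members had an unadjusted p under 0.05.

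In control kidneys, before any obstruction, 3 of the 31 genes were higher in KO than in WT and none was lower (4.18% of all genes called, 3.65% higher). The libraries of the genotypes did not overlap for 19.6% of all genes. Ctss had 64.7, 67.4, 40.6 and 65.3 CPM in KO against 8.39, 13.2, 15.4 and 15.5 in WT, 4.53-fold higher (log2 fold change 2.18 ± 0.40, adjusted p = 0.00278). Laptm5 had 52.6, 45.7, 37.8 and 55.8 against 11.4, 16.5, 21.0 and 20.5, 2.76-fold higher (log2 fold change 1.47 ± 0.31, adjusted p = 0.00707). Neither gene's groups overlapped, and both calls held in each of the 24 fits that left out 1 library. Ctsw had 3.95, 2.51, 2.59 and 3.43 against 0.432, 0.850, 0.807 and 0.859, also without overlap (log2 fold change 2.07 ± 0.53, adjusted p = 0.0254). Its call was lost in 6 of the 24 fits: without any 1 of the WT controls or without KO control replicate 1 or 4 (adjusted p up to 0.109). Cd68 had 9.53, 7.76, 8.30 and 11.4 CPM against 3.29, 2.89, 3.86 and 4.38, without overlap, and did not pass (log2 fold change 1.36 ± 0.46, adjusted p = 0.111; 1.37, called, without WT day 10 replicates 2 and 3).
Over all members, the median difference between KO and WT controls was -0.04 against 0.01 for all genes. Glb1 stood at -0.61 ± 0.26 and the Lamp genes at -0.22 and -0.16, not called. Beside these values, 12 of 16 macrophage markers and 9 of 12 T and NK cell markers were higher in KO controls, with sums of 626, 559, 445 and 534 against 180.5, 229, 264 and 278 CPM and of 26.8 to 46.6 against 4.85 to 9.45 CPM. Their part in the result was not tested.

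During obstruction no member separated the genotypes by the test. At day 5, 0 of 31 were called (0.146% of all genes), 0 had an unadjusted p under 0.05 in edgeR, and 0 were called by DESeq2. The KO minus WT differences lay between -0.29 and 0.51, and the outermost 95% limits of any member were -0.84 and 1.45. For Ctss the interval was -0.61 to 0.98 around 0.18, and for Cd68 -0.84 to 0.87 around 0.02, so changes within those bounds are not excluded. At day 10, 0 of 31 were called (1.41% of all genes) by edgeR, 9 had an unadjusted p under 0.05, and DESeq2 called 2, Ctsc and Cd68. Ctsc had 129, 136, 179.9 and 169 CPM in KO against 136, 663, 747 and 131 in WT (log2 fold change -1.45 ± 0.39, adjusted p = 0.0692), Cd68 32.0, 31.5, 39.5 and 39.1 against 34.8, 107, 230.0 and 26.0 (log2 fold change -1.48 ± 0.41, adjusted p = 0.0775) and Ctss 220.3, 280.2, 308 and 366 against 247, 826, 1332 and 217 (log2 fold change -1.16 ± 0.38, adjusted p = 0.148). In each of these the KO libraries lay near WT replicates 1 and 4 and below replicates 2 and 3. The count of calls at day 10 was 10 without WT day 10 replicate 4, 9 without replicate 1, and 0 without both replicates 2 and 3.

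The change from day 0 to day 10 differed between genotypes for 4 members, all rising less in KO (3.25% of all genes called for this difference, 3.12% with a smaller rise or larger fall in KO). For Ctss the difference (KO response minus WT response) was -3.34 ± 0.56 (adjusted p = 0.00797), for Cd68 -2.85 ± 0.62 (adjusted p = 0.0134), for Laptm5 -2.2 ± 0.43 (adjusted p = 0.00945) and for Ctsc -2.19 ± 0.55 (adjusted p = 0.0298). KO minus WT, Ctss was 2.18 at day 0, called, and -1.16 at day 10, not called, and Laptm5 1.47, called, and -0.73, not called. Without WT day 10 replicates 2 and 3 the day 10 values of Ctss and Laptm5 turned to 0.33 and 0.29, and those of Cd68 and Ctsc to 0.21 and 0.19, none of them called. In the same fit, the differences in the response were -1.86 for Ctss, -1.16 for Cd68 and -1.18 for Laptm5, all called (adjusted p = 0.00228, 0.0164 and 0.0247), and -0.56 for Ctsc, not called. The Ctsc call was also lost in 10 of the 24 fits that left out 1 library. There were 7 calls without WT day 10 replicate 4. No member was called on the log2(FPKM + 1) scale, nor when only the groups compared were fitted, although Ctss kept its direction in both (-2.77 and -3.31). On log2(FPKM + 0.1), 3 members were called, all with a smaller rise or larger fall in KO. Among macrophage markers, 15 of 16 had a smaller rise in KO at day 10; their part was not tested.
For the change to day 5, no member was called (0.564% of all genes), 4 had an unadjusted p under 0.05, and DESeq2 called 1. The edgeR value for Ctss was -2.0 ± 0.55 (adjusted p = 0.104). Ctss, Cd68 and Laptm5 were called (-2.03, -1.38 and -1.23) once replicates 2 and 3 of WT day 10 were left out of the fit, whose estimate of spread is shared by all groups.

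Other lysosomal genes, taken from lists grouped by function, also included both risers and fallers. Over all genes at day 10, 68.1% were called in WT (37.8% higher and 30.3% lower). In KO 54.3% were called (28.3% higher and 26% lower), so calls in both directions were common. The WT day 10 values here include replicates 2 and 3. Those libraries had the highest WT day 10 sums in the lists of other membrane proteins, cathepsin inhibitors and lysosome repair. In the other lists they were not both highest. Of 21 V-ATPase subunits, which acidify the lysosome and also the urine, 17 fell and 1 rose in WT at day 10, and 19 fell and 1 rose in KO. Their medians were -0.79 and -0.69, and -0.24 and -0.05 on the log2(FPKM + 1) scale, where the median gene stood at 0.54 and 0.51. Atp6v1d (-0.79 ± 0.09), Atp6v1e1 (-1.07 ± 0.14) and Atp6v1h (-1.08 ± 0.14) had the lowest adjusted p in WT. The summed V-ATPase CPM was 4503 to 4751 in WT controls and 2272 to 3085 at day 10.
Of 30 other hydrolases, 6 rose and 13 fell in WT at day 10 (median -0.28, and 0.31 on the log2(FPKM + 1) scale), and 4 rose and 12 fell in KO (-0.19, and 0.41). Pla2g15, lysosomal phospholipase A2, rose by 2.21 ± 0.22, Dnase2a, the acid endonuclease, by 1.43 ± 0.21 and Arsa, arylsulfatase A, by 1.12 ± 0.16. Of 17 other membrane proteins 5 rose and 6 fell in WT (median -0.19, and 0.32 on the log2(FPKM + 1) scale) and 1 rose and 4 fell in KO. Slc11a1, the metal transporter of macrophage phagosomes, rose by 5.61 ± 0.66 in WT and 1.58 ± 0.55 in KO. The summed CPM of the 17 was 1158, 1428, 1813 and 1349 in WT day 10 replicates 1 to 4 and 1216 to 1362 in KO. Of 13 genes of the mannose 6-phosphate route and sorting, 3 rose and 5 fell in WT, with Igf2r, the large mannose 6-phosphate receptor, at -1.15 ± 0.20 and Gnptg at -1.0 ± 0.16; the list's median was -0.30, and 0.30 on the log2(FPKM + 1) scale.
Of 17 listed inhibitors of cathepsins, 6 passed the filter on low counts and were tested. All 6 rose in WT at day 10 (median 2.36) and 3 of 6 in KO (median 0.80), and none was called lower on either scale. In WT controls 8 of the 17 were at 0. A gene can pass that filter through obstructed libraries alone, so the 6 can be weighted towards risers. Serpinb6a was at 2.13 ± 0.23 in WT and 1.66 ± 0.23 in KO, and Cstb, cystatin B, at 1.80 ± 0.25 and 1.30 ± 0.25. The summed CPM of the 17 inhibitors was 618, 962, 1057 and 644 in WT day 10 replicates 1 to 4 and 605 to 657 in KO. Of 10 genes of lysosome repair and damage, 6 rose and 1 fell in WT and 6 rose in KO. The galectin Lgals3, which gathers on broken lysosomes and is also high in macrophages, was at 2.62 ± 0.27 and 1.61 ± 0.27. The summed CPM of the 10 repair genes was 1025, 1574, 1689 and 942 in WT day 10 replicates 1 to 4 and 943 to 1062 in KO.
Of 17 partners of TFEB and of mTORC1 at the lysosome, 2 rose and 8 fell in WT (median -0.24, and 0.39 on the log2(FPKM + 1) scale). Tfe3, the close relative of Tfeb, rose by 0.94 ± 0.16 in WT and 0.61 ± 0.16 in KO, while Mtor was at -2.47 ± 0.41 in WT. Of 15 autophagy genes 1 rose and 8 fell in WT (median -0.29, and 0.32 on the log2(FPKM + 1) scale), with Gabarapl1 at -1.57 ± 0.25.

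**Figure D5:**
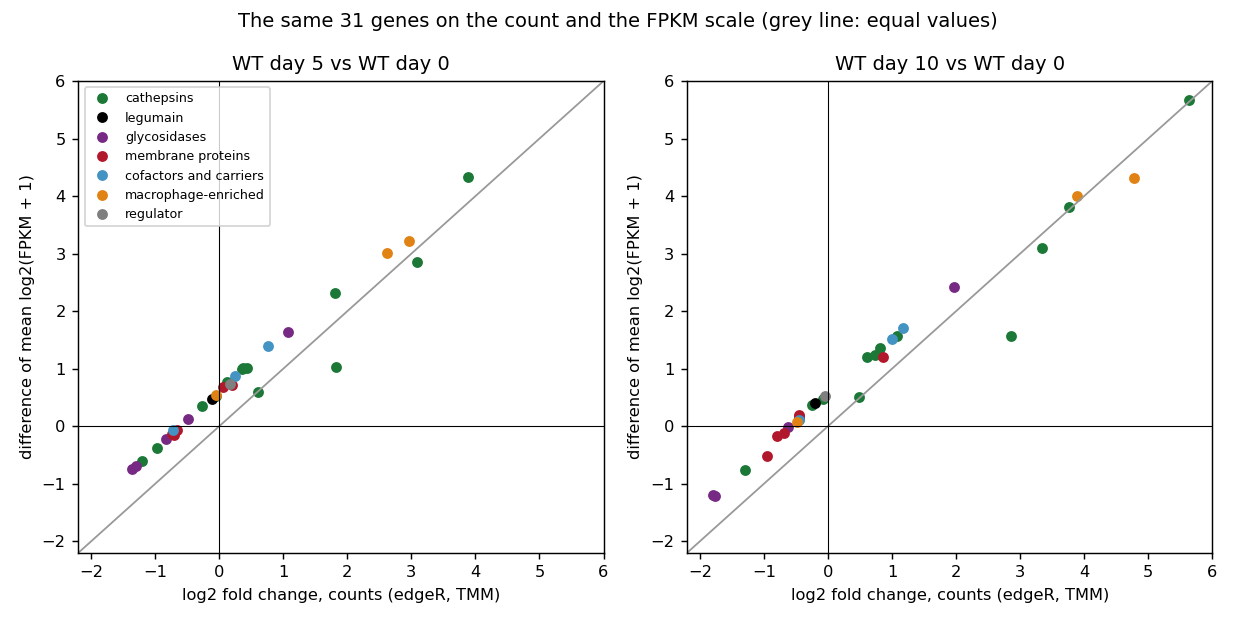
Log2 fold change from counts (horizontal axis) against the difference of log2(FPKM + 1) (vertical axis) for the 31 genes, WT day 5 and WT day 10 against WT day 0. On each day 28 of the 31 points sit above the line of equal values, and Ctsk and Ctsw sit below it on both days, with Ctse at day 5 and Cd68 at day 10. The median gap above the line is 0.598 at day 5 and 0.544 at day 10, so several small decreases in counts are small increases in FPKM.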

How the data were processed

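Whole-kidney RNA was extracted with TRIzol and made into stranded polyadenylated RNA libraries from 1 ug of RNA, per the labels' protocols. Reads were handled with bcl2fastq 2.16, STAR 2.5 and Cufflinks on mouse build mm9, per the submitters' processing notes. The counting tool, its use of strand and the gene annotation are not given in the sources used here. The authors deposited a table of raw counts per gene symbol (23955 symbols) and a table of FPKM values (23953 symbols), each with 1 column per library; FPKM is the authors' normalization for transcript length and library size.

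Counts were tested as deposited with edgeR 4.0.16 (R 4.3.3): genes were kept by filterByExpr (minimum count 10, minimum total 15; 15080 genes), scaled by TMM (factors 0.764 to 1.22) and fitted with the robust quasi-likelihood method, 1 mean for each of 6 groups over all 24 libraries (18 residual degrees of freedom). There were 11 comparisons: each obstructed group against day 0 and day 10 against day 5 within a genotype, KO against WT at each day, and the genotype difference in the response at day 5 and day 10. P-values were adjusted by Benjamini-Hochberg over all genes tested in each comparison, with a call at 0.05. Standard errors (SE) were taken from each log2 fold change and the square root of its F statistic. CPM uses the tested genes' totals and the TMM factors. FPKM was used for levels compared between genes and, with limma 3.58.1 on log2(FPKM + 1), as another scale; there, a gene was kept where 4 or more libraries had an FPKM of 1 or more, and a fold change understates that of low genes. DESeq2 1.42.0 was an alternative count test. The edgeR script was checked on simulated counts.

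All 31 members are described. Of every other list, up to 3 genes were named, those with the lowest adjusted p in WT at day 10, besides markers at 0. The members and lists were chosen with earlier results of these data known. The replicate numbers were checked as a pairing, by correlating the deviations from the group means of same-numbered libraries. All 4 pairs were above 0.1 for WT day 10 against WT day 5 (0.105 to 0.361) and for KO day 10 against WT day 10 (0.141 to 0.306). In no other comparison were all 4 above 0.1, though single pairs were. For KO day 5 against WT day 5, replicates 1 to 4 gave 0.265, 0.0221, -0.0896 and 0.591. The labels do not say what a number shares. Promoters are RefSeq's (GRCm38.p6); Ctsb, Ctse, Ctsh, Ctsw, Npc1 and Atp6v0d2 were not matched.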

Additional observations from a re-analysis of the deposited data

Results flagged for a closer look

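The genotype difference in the day 10 response passed the test for 4 of the 31 genes, each rising less in KO than in WT: -2.19 for Ctsc, -3.34 for Ctss, -2.85 for Cd68 and -2.2 for Laptm5 (log2, adjusted p = 0.0298, 0.00797, 0.0134 and 0.00945 by edgeR). With replicates 2 and 3 of WT day 10 left out, the Ctsc difference was -0.56 and not called.

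Single libraries stood apart from the other 3 of their group, by a gap test on CPM at the 95% level, in 9 of 186 groups of a gene, where chance gives about 1 in 20. In KO controls, Ctsf was at 118 in replicate 4, with the next library at 90.2. Replicate 3 of the KO controls was low for Ctss (40.6, next 64.7), Lamp1 (1660, next 1800) and Cd63 (731, next 894). Ctsw was low in WT control replicate 1 (0.432, next 0.807) and high in WT day 10 replicate 3 (12.9, next 3.44). Man2b1 was high in WT day 5 replicate 4 (259, next 159), Gaa in KO day 10 replicate 1 (161, next 126), and Mcoln1 was low in WT control replicate 4 (69.4, next 79.3).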

How the results depend on the processing

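With 4 libraries a group, the median 95% interval of a member reached about 0.45 (log2) to either side of its value. For the genotype differences in the response it reached about 0.64. A value that was not called therefore does not exclude a change within its interval. Day 10 results in WT rest on 2 pairs of libraries that differ, and the labels do not say what separates them. All 94 calls kept their direction under the scaling by DESeq2's factors, both other count filters, DESeq2, the replicate block, the fit of only the groups compared, the centred FPKM fit (chosen after seeing the data) and every fit that left out libraries; the FPKM fits without centring are the exception.

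On the scales log2(FPKM + 1), with and without its filter, and log2(FPKM + 0.1), the values listed here were positive against a negative value in the counts. Each was called in the counts or on at least 1 of these FPKM scales. Another 39 values, called in neither, also had the other sign with log2(FPKM + 1). In WT at day 5 the listed values were Ctsa 0.36, Ctso 0.53 (0.57 with 0.1), Lgmn 0.48, Gaa 0.12 and Atp6v0d2 0.55 (0.59). In WT at day 10 they were Ctsa 0.36 (0.37), Ctso 0.48 (0.52), Gaa 0.18, Cd63 0.19, Atp6v0d2 0.0683 (0.0693) and Tfeb 0.52 (0.58). In KO at day 5 they were Ctsa 0.36 (0.37), Ctso 0.54 (0.57), Man2b1 0.0235 (0.0238), Cd63 0.56, Mcoln1 0.0751 (0.0784) and Atp6v0d2 0.0206 (0.0231). In KO at day 10 they were Ctsa 0.29, Ctso 0.56 (0.60), Man2b1 0.0854 (0.0876), Lamp1 0.0218 (0.0219) and Mcoln1 0.0789 (0.0829). None of those listed turned with each library centred on its median gene.

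The number of members called moved by more than 1.5 times in 5 comparisons; except where libraries were left out, the cause was not tested. For WT day 10 against day 5 it was 9, and 5 with log2(FPKM + 1) without the filter, 0 in the fit of only the groups compared and 0 without WT day 10 replicates 2 and 3. For KO against WT controls it was 3, and 5 with log2(FPKM + 0.1), 8 with only those groups and 7 without the pair of WT libraries. For KO against WT at day 10 it was 0, and 2 by DESeq2. For the day 5 genotype difference it was 0, and 1 by DESeq2, 3 with only those groups and 3 without the pair. For the day 10 genotype difference it was 4, and 0 in all 3 fits on log2(FPKM + 1) and 0 with only those groups (Ctss -3.31, adjusted p = 0.0681). With log2(FPKM + 0.1) it was 3, within that limit.

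Leaving out 1 library at a time gave 16 to 20 calls for WT day 5, 21 to 24 for WT day 10, 12 to 18 for KO day 5 and 16 to 22 for KO day 10 against day 0. It gave 1 to 14 for WT day 10 against day 5, 0 to 0 for KO day 10 against day 5, and 2 to 4, 0 to 0 and 0 to 10 for KO against WT at day 0, 5 and 10. The genotype differences gave 0 to 1 (Ctss) at day 5 and 3 to 7 at day 10.

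With the replicate number as a block, WT day 10 against day 5 had 7 calls; KO day 5 lost Ctse (1.38, adjusted p = 0.0585) and gained Glb1 (-0.63, adjusted p = 0.029), and no other member's call changed.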
